A study of Mus musculus with 16 samples.

Results

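The genes described here are 7 genes by which liver cells take up, phosphorylate and sense sugar: Mlxipl, Pklr, Gckr, Khk, Tkfc, Txnip and Slc2a2. They were chosen by name, and all 7 were found among the 54752 genes of the deposited count table. All 7 were also among the 17833 genes with enough reads to be tested. RNA was sequenced from the livers of 16 male mice, 4 per diet, sampled at 11 weeks of age, and every animal carried the genotype Ercc1 d/- on an F1 hybrid C57BL6J/FVBN background. Ercc1 encodes a DNA repair endonuclease subunit, and mice with this genotype age prematurely. No group had an intact Ercc1 genotype, so each diet difference applies to repair-deficient animals. All mice ate the synthetic AIN93G diet until 8 weeks of age. The control group stayed on it. The high-protein group then ate a diet with about 194% of the standard protein and 70% of the standard carbohydrate. In the low-protein group protein was 70% and carbohydrate about 112% of standard, and in the low-fat group fat was 70% and carbohydrate about 112%. The diets were matched for calories and eaten ad libitum. The low-protein and low-fat groups together are called the high-carbohydrate livers below (n = 8). Carbohydrate and protein content move in opposite directions between the high-protein diet and each of the other diets, and fat was also lowered in the low-fat diet. The effects of these contents cannot be told apart. The kind of sugar in the diets is not given in the sources used here, nor is the feeding state or the hour of sampling.

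Hepatocytes admit glucose and fructose through the facilitative transporter GLUT2, encoded by Slc2a2, and trap both sugars by phosphorylation. Products of that phosphorylation activate ChREBP, the carbohydrate response element binding protein encoded by Mlxipl, which with its partner Mlx binds paired E-box-like elements near genes of glycolysis and fat synthesis. Fructose enters the same path through ketohexokinase (Khk) and triokinase (Tkfc) and so bypasses the early control of glycolysis, and the regulatory protein encoded by Gckr couples fructose to glucose phosphorylation. Pklr, the liver pyruvate kinase of the last step of glycolysis, and Txnip, an arrestin-domain protein that binds thioredoxin and limits glucose uptake, are long-known glucose-responsive genes.

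In GRCm38 coordinates of the table, Mlxipl (ENSMUSG00000005373.13) spans chr5:135089890-135138382, Khk (ENSMUSG00000029162.15) chr5:30921431-30931248 and Gckr (ENSMUSG00000059434.9) chr5:31297443-31327314. Pklr (ENSMUSG00000041237.12) spans chr3:89136142-89146784, Txnip (ENSMUSG00000038393.14) chr3:96557957-96561883 and Slc2a2 (ENSMUSG00000027690.13) chr3:28697903-28731359, and these 6 genes lie on the + strand. Tkfc (ENSMUSG00000034371.8) lies on the minus strand of chr19:10592200-10604258.

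The promoters of Pklr, Txnip, Khk and Mlxipl are printed because they hold letters of the element through which ChREBP is known to act. Promoters of all 7 genes, with 9 start sites, were found in RefSeq (GRCm38.p6), and the 250 bases before each start were searched on both strands. Capitals mark the match. For Khk and Mlxipl only the 60 bases around the match are given.
Pklr (chr3:89136373-89136622, + strand): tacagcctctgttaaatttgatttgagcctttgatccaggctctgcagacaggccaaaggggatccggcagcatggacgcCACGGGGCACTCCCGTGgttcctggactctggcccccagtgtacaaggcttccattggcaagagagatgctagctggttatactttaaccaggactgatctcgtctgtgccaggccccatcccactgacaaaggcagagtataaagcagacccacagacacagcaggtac
Txnip (chr3:96557707-96557956, + strand): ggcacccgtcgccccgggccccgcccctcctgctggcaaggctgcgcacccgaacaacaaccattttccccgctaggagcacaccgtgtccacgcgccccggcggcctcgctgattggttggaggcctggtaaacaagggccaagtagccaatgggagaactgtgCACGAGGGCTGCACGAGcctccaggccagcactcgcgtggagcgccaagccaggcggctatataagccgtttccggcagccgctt
Khk (chr5:30921461-30921520, + strand): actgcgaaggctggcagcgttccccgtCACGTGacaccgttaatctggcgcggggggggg
Mlxipl (chr5:135089765-135089824, + strand): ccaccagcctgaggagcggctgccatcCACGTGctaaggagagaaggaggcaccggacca
In the Pklr promoter the capitals match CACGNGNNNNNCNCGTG, an inverted pair of E-box-like units, 170 bases before the start at chr3:89136623. This form occurred in 13 of 32851 mouse promoters (0.0396%), and among the 7 genes in Pklr only. The Txnip capitals match the direct-repeat form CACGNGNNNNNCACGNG, 85 bases before the start, which 15 promoters held (0.0457%). The direct-repeat form was searched for after the Txnip promoter had been read. The plain E-box CACGTG stood 71 bases before the start of Khk and 98 bases before the upstream start of Mlxipl. It is common, with 1978 promoters holding it (6.02%). A match of letters is a description of the sequence and was not measured as binding here.

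Library totals ran from 35243594 to 46899907 counts except in low fat 2, with 112789127, and the genes were deeply counted: the lowest count of any of the 7 in any library was 923 reads (Pklr). Levels are given as CPM, read counts scaled to a common depth, using TMM-normalised library sizes. No gene of the 17833 reached an adjusted p under 0.05 in any of the 5 comparisons (0.0%). Unadjusted p-values under 0.05 numbered 1109 when control was set beside high protein (DESeq2 called 1 gene), 1262 beside low protein (10 genes) and 1644 beside low fat (4 genes). There were 1578 in high carbohydrate against high protein (96 genes) and 425 between low fat and low protein (0 genes). The liver identity of the libraries was checked on 8 hepatocyte genes such as Alb and Apoa1, whose summed level was 75900 to 107000 CPM of library totals in every library. Pancreatic Ins1, Ins2 and Gcg were at 0 in all 16. Ercc1 itself lay between 1.27 and 2.01 CPM in the 16 libraries, and with the same alleles in all animals it checks no group label.

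A single liver stood farthest apart and touches every comparison with control. Control 4 lay farthest from its own replicates, its log2 levels deviating from their mean with an SD over genes of 1.29, where the other 15 libraries gave 0.43 to 1.01. In it Igfbp1, a secreted protein that insulin represses, was at 9721 CPM against 68.1 to 133 in the other controls. Pck1, the gluconeogenic enzyme induced in fasting, was at 16340 CPM against 2181 to 2729. High-protein 4 was the library with the next highest Igfbp1, at 1376 CPM, and the other 14 lay between 60.1 and 269. Results against control are therefore given with and without control 4, and those against high protein with and without high-protein 4. The part of feeding state in these differences was not tested. Next farthest from its replicates was control 3, at 1.01. Its summed kidney markers, described below, were at 5210 CPM of library totals, against 91.6 to 256 in the other controls.

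The 7 genes were abundant in every library. Per kilobase of exon, the median over the 16 livers was highest for the fructose genes, 269 CPM per kb for Khk and 180 for Tkfc. The other medians were 69.8 for Gckr, 67.8 for Slc2a2, 59.1 for Pklr, 54.1 for Txnip and 47.2 for Mlxipl. The genes differed most in how far their level moved between livers. The highest library exceeded the lowest 1.78-fold for Gckr, 2.46-fold for Khk, 3.17-fold for Tkfc, 3.31-fold for Mlxipl and 3.45-fold for Slc2a2, but 10.0-fold for Pklr and 108-fold for Txnip. Control 4 was the lowest library for Khk, Tkfc, Slc2a2 and Pklr and the highest for Txnip, so their ratios rest on it. Without it Slc2a2 ran from 340 to 521 CPM, Pklr from 77.2 to 284 CPM and Txnip from 33.8 to 685 CPM. Less RNA per cell and fewer cells of a type cannot be told apart in bulk tissue. Gene counts also add all transcripts, so the long and short forms of ChREBP and the Khk isoforms are not separated.

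**Figure D1:**
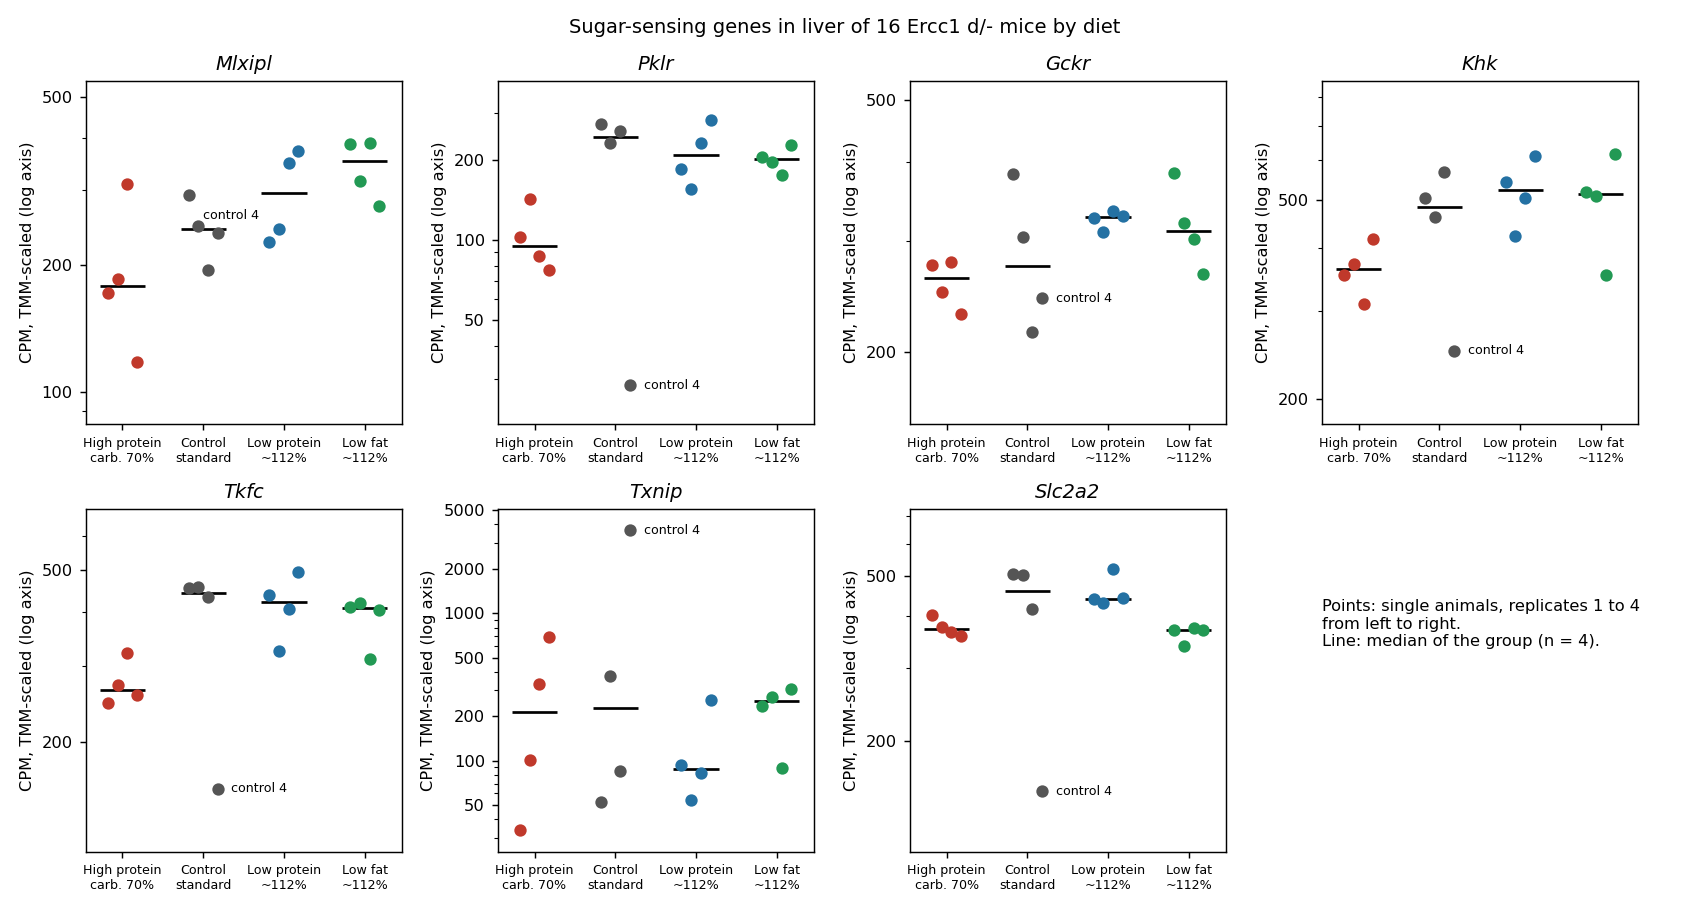
Level of each of the 7 genes in every liver (CPM on TMM-scaled library sizes, log axis), with diets ordered by stated carbohydrate content. Points are single animals and lines are group medians (n = 4). Pklr in the high-protein livers (77.2 to 143 CPM) lies below all 8 high-carbohydrate livers, and control 4 is the lowest control for Pklr, Khk, Tkfc and Slc2a2 and the highest for Txnip.

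The widest dietary contrast in carbohydrate, the 8 high-carbohydrate livers against the 4 high-protein livers, put 6 of the 7 genes higher with high carbohydrate. Over all genes tested 53.5% were higher. The 6 were Mlxipl, Pklr, Gckr, Khk, Tkfc and, by little, Slc2a2, while Txnip was lower. None passed adjustment over all genes (0 of 7, against 0.0% of all genes). At an unadjusted p under 0.05, 5 of 7 were higher, against 4.06% of all genes tested. Because Pklr, Khk and Tkfc vary together across livers, the 5 are not 5 separate pieces of evidence. The median log2 fold change of the 7 was 0.49, and that of all genes 0.02.

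Mlxipl, the sugar-sensing transcription factor, was 1.63-fold higher in the high-carbohydrate livers. Its levels were 171, 185, 311 and 118 CPM with high protein, against 226, 243, 348 and 373 CPM with low protein and 387, 316, 389 and 276 CPM with low fat. High-protein 1, 2 and 4 lay below all 8 others, and high-protein 3 lay among them. The means were 196 ± 82.1 CPM (SD, n = 4) and 320 ± 64.8 CPM (SD, n = 8). This was a log2 fold change of 0.70 (SE 0.23, adjusted p = 0.447, edgeR quasi-likelihood test). It ranged from 0.50 without high-protein 4 to 1.00 without high-protein 3.

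Pklr showed the clearest separation of the 7 between these diets. The high-protein livers held 103, 143, 87.3 and 77.2 CPM. The low-protein livers held 186, 156, 232 and 284 CPM, and the low-fat livers 206, 196, 176 and 228 CPM. All 4 high-protein livers lay below all 8 others. Of all genes tested 0.925% were separated in this way, and Pklr was the only one of the 7. Mean levels were 103 ± 28.8 CPM (SD, n = 4) and 208 ± 39.8 CPM (SD, n = 8), a log2 fold change of 1.02 (SE 0.40, adjusted p = 0.516, edgeR quasi-likelihood test). When the 12 libraries of these 3 diets were fitted without the controls, the fold change was the same with an SE of 0.18, and Pklr passed (adjusted p = 0.0326), as did 152 of 17423 genes (0.872%). Over all alternatives its adjusted p ranged from 0.0326 to 0.982. Pklr shares 711 exon bases with Hcn3 on the opposite strand. Hcn3 was at 2.24 to 20.1 CPM of library totals with a log2 fold change of 0.62 (SE 0.44) in the same contrast, and since the strand setting of the counting is not given in the sources used here, reads of Pklr and Hcn3 in that stretch cannot be told apart.

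The fructose genes were lower with high protein in the same livers, by less. Khk, which phosphorylates fructose, was at 354, 372, 310 and 418 CPM with high protein, against 543, 423, 505 and 611 CPM with low protein and 517, 509, 353 and 615 CPM with low fat. Low fat 3 lay within the high-protein range, and the other 7 high-carbohydrate livers lay above it. For Khk the log2 fold change was 0.49 (SE 0.20, adjusted p = 0.516, edgeR). Tkfc, which phosphorylates the glyceraldehyde released from fructose, was at 245, 271, 320 and 257 CPM with high protein. It was at 438, 325, 406 and 494 CPM with low protein and 410, 418, 311 and 404 CPM with low fat. Again only low fat 3 reached into the high-protein range. Tkfc had a log2 fold change of 0.55 (SE 0.23, adjusted p = 0.519, edgeR).

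Gckr, which encodes the glucokinase regulatory protein, varied least. It was at 275, 249, 278 and 230 CPM with high protein, 326, 309, 334 and 328 CPM with low protein, and 383, 320, 301 and 266 CPM with low fat. All 4 low-protein livers lay above the high-protein livers, and low fat 4 lay among them. The 8 livers exceeded the 4 by 0.32 on the log2 scale (SE 0.14, adjusted p = 0.543, edgeR). Slc2a2, the transporter gene, was at 403, 377, 368 and 359 CPM with high protein and 372, 340, 376 and 370 CPM with low fat. These 2 groups overlapped closely, whereas low protein was higher at 441, 432, 521 and 442 CPM. The pooled log2 fold change of Slc2a2 was 0.12 (SE 0.22, adjusted p = 0.892, edgeR).

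Txnip gave no separation between diets in either direction. It was at 33.8, 101, 330 and 685 CPM with high protein, at 94.2, 53.9, 82.4 and 258 CPM with low protein, and at 236, 271, 89.1 and 307 CPM with low fat. The high-protein livers held both the lowest and the highest of these 12 values. Its log2 fold change was -0.79 (SE 0.91, adjusted p = 0.812, edgeR), and 0.08 without high-protein 4. Of the 7 genes it was the only one whose direction depended on that library. Txnip shares 606 exon bases with the antisense transcript Gm15441, whose level stayed between 0.13 and 2.03 CPM of library totals.

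**Figure D2:**
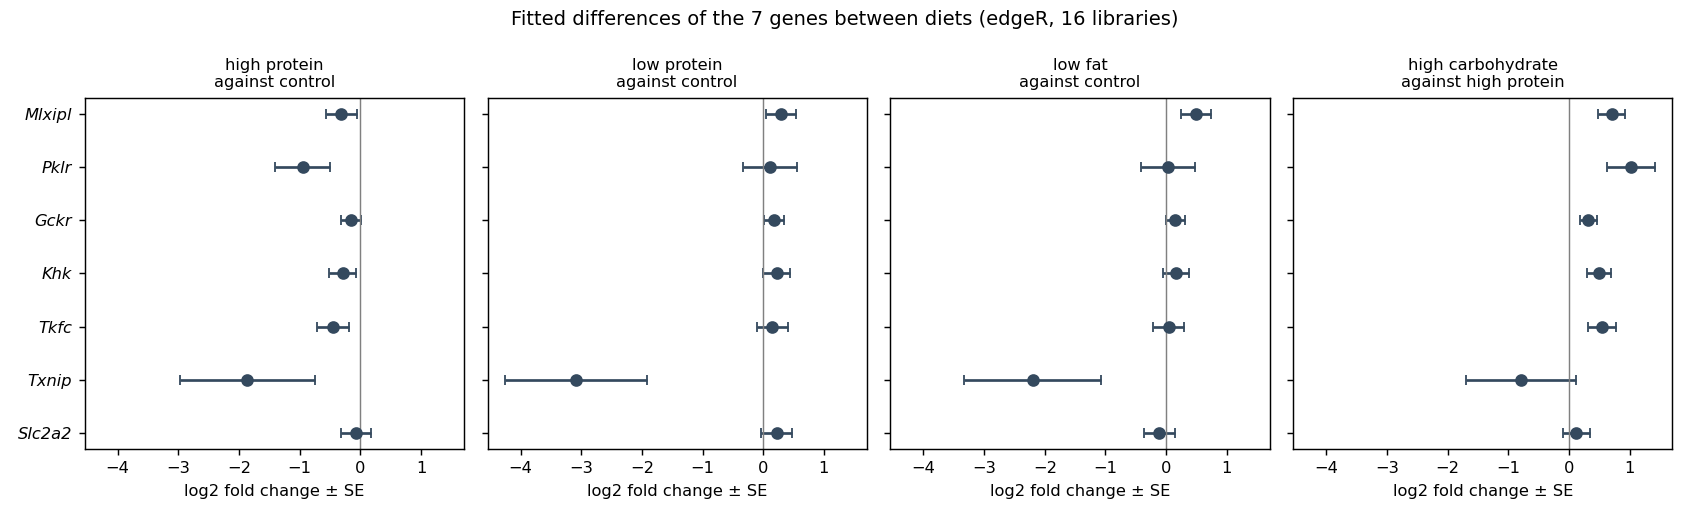
Fitted log2 fold change (point) and standard error (bar) of each gene in 4 comparisons, from 1 edgeR model of 16 libraries. Mlxipl, Pklr, Gckr, Khk and Tkfc lie 0.32 to 1.02 above 0 with high carbohydrate against high protein, and Txnip carries the widest errors, up to 1.17.

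The same contrast was read with the libraries in doubt left out. Without high-protein 4 and control 4 together, the log2 fold changes were 0.89 for Pklr, 0.54 for Khk, 0.50 for Mlxipl and Tkfc, 0.25 for Gckr and 0.08 for Slc2a2 and Txnip, so that all 7 genes were on the higher side, 4 of them at an unadjusted p under 0.05, as were 4.22% of all genes. The number of the 7 genes higher at an unadjusted p under 0.05 was 5 with all libraries and depended on which liver was left out. It was 2 without high-protein 1 (2.67% of all genes), high-protein 3 (4.36%), high-protein 4 (2.08%) or low protein 4 (3.19%). It was 3 without high-protein 2 (3.94%) or low fat 1 (3.14%), 2 (3.21%) or 4 (3.89%), 4 without low protein 1 (3.36%) or 3 (3.23%), and still 5 without low protein 2 (3.94%) or low fat 3 (3.31%). Kidney transcripts such as Umod and Kap also differed between livers. All 18 kidney markers were higher in the high-carbohydrate livers, beside 53.5% of all genes, with a median log2 fold change of 0.96. None of the 18 reached an unadjusted p under 0.05. The kidney markers vary together across livers, so they are not 18 separate pieces of evidence. Their summed level was 1.56 to 1540 CPM of totals with high protein, 669 to 1250 with low protein, 1010 to 3090 with low fat and 91.6 to 5210 in control. In order of rising kidney level, high-protein 1, 3, 4 and 2 held 103, 87.3, 77.2 and 143 CPM of Pklr. The lowest high-carbohydrate liver held 156 CPM. With the kidney level as a covariate the fold changes were 0.75 for Mlxipl, 0.98 for Pklr, 0.44 for Gckr, 0.43 for Khk and 0.52 for Tkfc, and 2 of the 7 genes, Mlxipl and Gckr, were then higher at an unadjusted p under 0.05, as were 2.94% of all genes. Lymphocyte markers were higher in the same livers in 6 of 6 cases, beside 53.5% of all genes. The lymphocyte markers were at 2.15 to 2.69 summed CPM with high protein against 3.01 to 5.54 with high carbohydrate. Of 6 erythroid markers 4, the globins Hba-a1, Hba-a2, Hbb-bs and Hbb-bt, were lower at an unadjusted p under 0.05, beside 4.79% of all genes. The other 2, Alas2 and Slc4a1, were higher. The median of the erythroid list was -0.81. Its summed level was 359 to 1260 CPM with high protein, 354 to 598 with low protein, 308 to 760 with low fat and 180 to 697 in control. Of 13 clock genes 4 were higher, beside 53.5% of all genes, with a median of -0.58. At an unadjusted p under 0.05, 2 clock genes were higher and 4 lower, beside 4.06% and 4.79% of all genes. The other marker lists had medians of 0.52 (cholangiocyte), 0.15 (Kupffer), 0.14 (stellate), -0.02 (hepatocyte) and -0.12 (endothelial). The part of kidney RNA, lymphocytes, blood and the hour of sampling in the differences of the 7 genes was not tested.

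**Figure D3:**
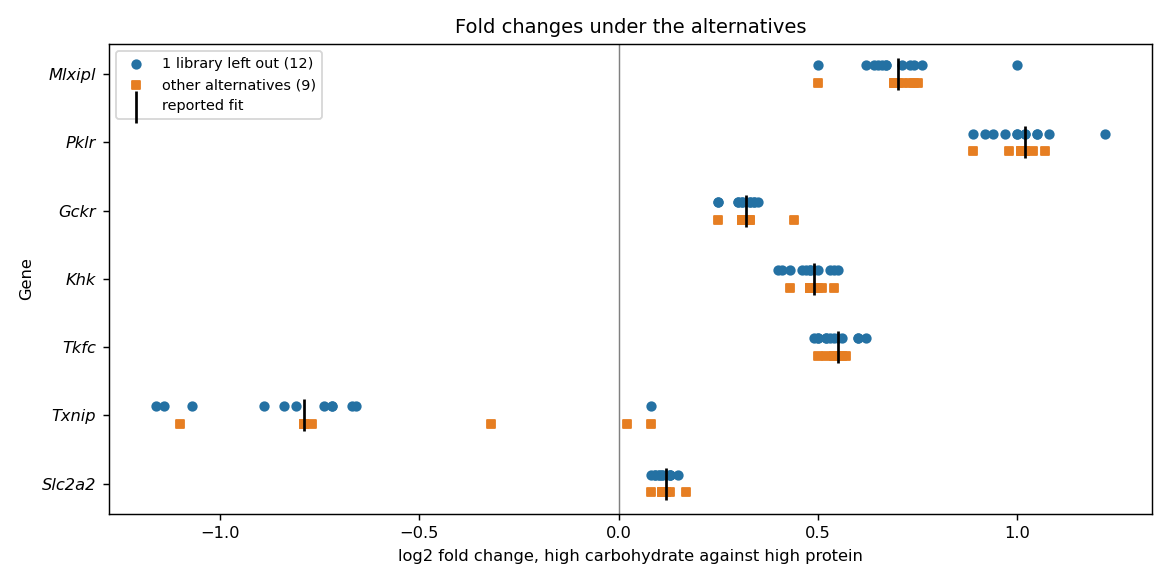
Log2 fold change of high carbohydrate against high protein for each gene under every alternative. The bar is the reported value, circles leave out 1 of the 12 livers compared, and squares change the method or the libraries. Mlxipl, Pklr, Gckr, Khk, Tkfc and Slc2a2 stay above 0 in all 126 values, whereas Txnip runs from -1.16 to 0.08 as single livers are left out.

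Against the control diet, the high-protein livers were lower for all 7 genes, where 41.7% of all genes tested were higher. None of the 7 passed the test (0.0% of all genes did), and none reached an unadjusted p under 0.05, as 3.74% of all genes did on the lower side. Without control 4, Pklr, Tkfc, Khk and Slc2a2 were lower at an unadjusted p under 0.05, 4 of 7 against 4.11% of all genes, and none passed adjustment. Control 4 was the lowest or highest control for 5 of the 7. Pklr was at 274, 232, 257 and 28.3 CPM in the controls, so that 3 controls lay above every high-protein liver and control 4 below all of them. The control mean was 198 ± 114 CPM (SD, n = 4), and 255 ± 21.3 CPM (SD, n = 3) without control 4. The log2 fold change of high protein against control was -0.95 (SE 0.45, adjusted p = 0.762, edgeR), and -1.32 without control 4 (SE 0.21, adjusted p = 0.168, edgeR).

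The fructose genes followed the same arrangement. Tkfc was at 453, 457, 432 and 156 CPM in the controls, with a log2 fold change of -0.45 in high protein (SE 0.26, adjusted p = 0.762, edgeR). Without control 4 it was -0.72 (adjusted p = 0.303, edgeR), and the 3 other controls lay well above the highest high-protein value of 320 CPM. Khk was at 503, 462, 568 and 250 CPM in the controls, with a log2 fold change of -0.29 and, without control 4, of -0.50. Control 4 was the lowest of all 16 livers for Pklr, Khk and Tkfc alike.

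Slc2a2 was at 506, 503, 417 and 151 CPM in the controls, and control 4 was again the lowest of the 16 livers. The log2 fold change with high protein was -0.07 (SE 0.25, edgeR), and -0.34 without control 4 (adjusted p = 0.441, edgeR). Mlxipl was not touched in this way: its controls were at 293, 247, 194 and 238 CPM, and control 4 lay between the others. Mlxipl had a log2 fold change of -0.31 with high protein, and of -0.33 without control 4. Gckr, at 383, 304, 215 and 243 CPM in the controls, had a log2 fold change of -0.15, and of -0.23 without control 4.

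Txnip was the member that control 4 moved most. It stood at 3652 CPM in control 4 and at 52.8, 373 and 84.8 CPM in the other controls. The mean of 1041 ± 1750 CPM (SD, n = 4) became 170 ± 176 CPM (SD, n = 3) without it. The log2 fold change of high protein against control was -1.86 (SE 1.11, adjusted p = 0.762, edgeR), and 0.74 without control 4. With low protein it was -3.09 (SE 1.17, adjusted p = 0.682, edgeR), the only 1 of the 7 at an unadjusted p under 0.05 in that comparison, where 4.73% of all genes were lower at that threshold. Without control 4 the low-protein value was -0.50. With low fat it was -2.20, and 0.37 without control 4. All 3 Txnip differences from control were nearer to 0 without this liver.

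**Figure D4:**
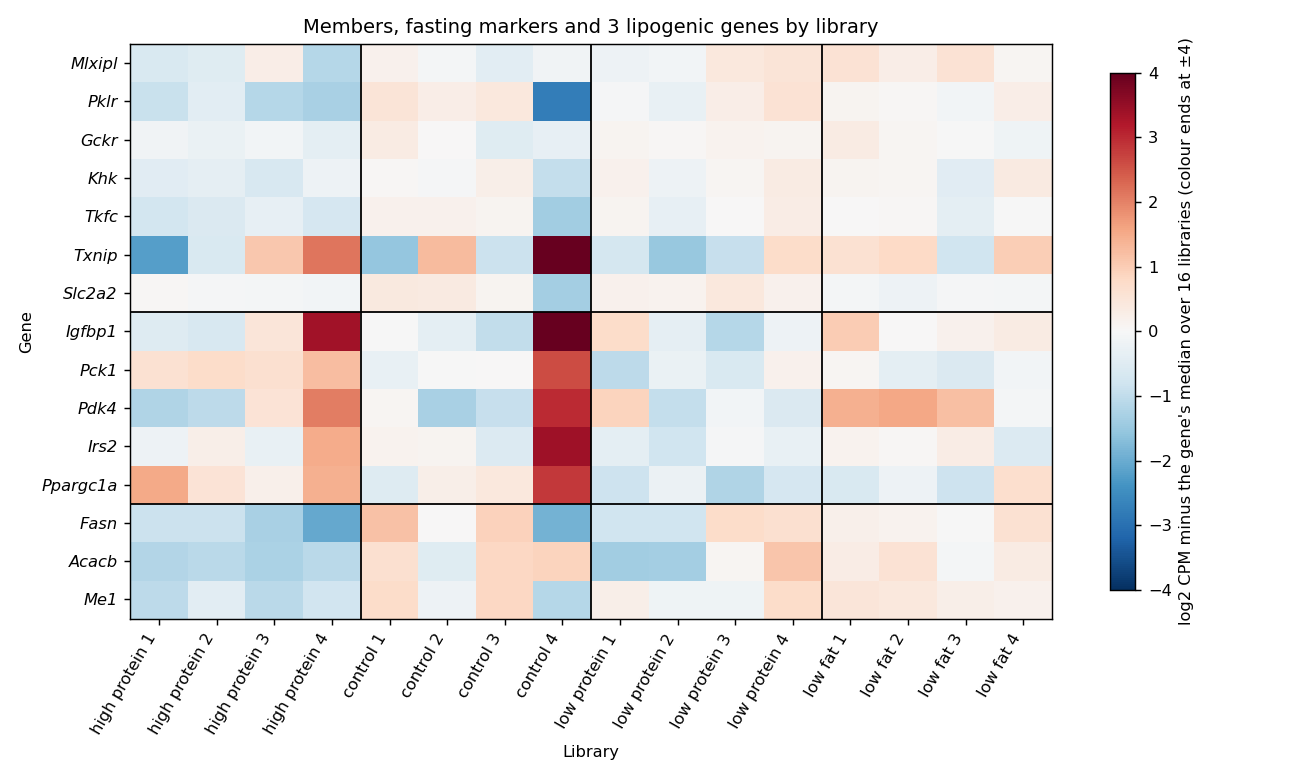
Log2 CPM of each gene minus its median over the 16 livers, with the 7 genes above, fasting markers in the middle and 3 lipogenic genes below. Control 4 is low for Pklr (28.3 CPM), Khk, Tkfc, Slc2a2, Fasn (139 CPM) and Me1 (74.8 CPM). It is high for Txnip (3652 CPM), Igfbp1, Pck1, Irs2 and Ppargc1a. The lipogenic gene Acacb goes the other way from Fasn and Me1, control 4 being its highest control (87.2 CPM). High-protein 4 shares the high Igfbp1 (1376 CPM), Pck1 (6239 CPM) and Txnip (685 CPM) and the low Pklr (77.2 CPM) and Fasn (124 CPM), while its Khk and Slc2a2 (418 and 359 CPM) lie far above those of control 4.

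Between the high-carbohydrate diets and control, differences other than that of Txnip were at most 0.49 on the log2 scale. No gene passed in either comparison with control (0.0% in each). With low protein, 6 of 7 were higher than control by 0.11 to 0.29 on the log2 scale, where 45.6% of all genes tested were higher. The exception was Txnip. Without control 4 the values for Pklr, Tkfc and Slc2a2 were -0.26, -0.12 and -0.07. With low fat, the largest difference apart from Txnip was that of Mlxipl, at 0.49 (SE 0.25, adjusted p = 0.557, edgeR). Mlxipl in low fat 1, 2 and 3 was above all 4 controls, and low fat 4, at 276 CPM, was below control 1, at 293 CPM. The low-fat log2 fold changes of Pklr, Tkfc, Gckr and Khk lay between 0.03 and 0.16, and without control 4 they were -0.36, -0.24, 0.05 and -0.06. With low fat none of the 7 reached an unadjusted p under 0.05, beside 9.22% of all genes in either direction. Slc2a2 with low fat was at -0.11, and at -0.41 without control 4 (adjusted p = 0.893, edgeR), where 3.15% of all genes were lower at an unadjusted p under 0.05.

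The group means can be ordered. For Mlxipl the order was low fat, at 342 ± 55.3 CPM (SD, n = 4), then low protein at 298 ± 73.7, control at 243 ± 40.3 and high protein at 196 ± 82.1, and each pair of neighbours overlapped. For Pklr it was low protein at 214 ± 55.9 CPM (SD, n = 4), low fat at 202 ± 21.4, control at 198 ± 114 and high protein at 103 ± 28.8. Khk, Tkfc and Gckr had the same order as Pklr, from 520 ± 78.7 to 364 ± 44.8 CPM for Khk, from 416 ± 70.7 to 273 ± 33.1 CPM for Tkfc and from 324 ± 10.7 to 258 ± 22.6 CPM for Gckr (SD, n = 4 each). Neighbouring groups overlapped in all of these orders. For Slc2a2 the order was low protein at 459 ± 41.3 CPM (SD, n = 4), control at 394 ± 167, high protein at 377 ± 19.1 and low fat at 364 ± 16.7, again with overlap between neighbours. For Txnip it was control at 1041 ± 1750 CPM (SD, n = 4), high protein at 288 ± 294, low fat at 226 ± 95.5 and low protein at 122 ± 92.3, and all 4 groups overlapped. With control 4 set aside, control and high protein no longer overlapped for Pklr, Khk, Tkfc and Slc2a2, 4 of 7 where 3.11% of all genes tested were lower without overlap. The control mean was then the highest of the 4 for Pklr (255 CPM), Tkfc (447 CPM) and Slc2a2 (475 CPM), lay above low fat for Khk (511 CPM) and was the third for Txnip (170 CPM), so those printed orders rest on control 4. For Mlxipl (245 CPM) and Gckr (301 CPM) the order was the same without it.

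Low fat against low protein compared diets with the same stated carbohydrate content. Fat was lowered in the former and protein in the latter. No gene passed in this comparison (0.0%), and none of the 7 reached an unadjusted p under 0.05, as 2.38% of all genes did. The log2 fold changes of 5 of the 7 lay within 0.20 of 0. They were 0.20 for Mlxipl (SE 0.25), -0.11 for Tkfc (SE 0.26), -0.09 for Pklr (SE 0.45), -0.06 for Khk (SE 0.22) and -0.03 for Gckr (SE 0.16). Txnip was higher with low fat by 0.89 with a large error (SE 1.09). Slc2a2 alone did not overlap between the groups, with all 4 low-fat livers (340 to 376 CPM) below all 4 low-protein livers (432 to 521 CPM), a separation that 2.14% of all genes showed in that direction. Its log2 fold change was -0.33 (SE 0.25, adjusted p = 1.0, edgeR). With these 8 libraries fitted alone the SE for Slc2a2 was 0.10 (adjusted p = 0.224, edgeR).

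Beyond the 7 genes, 18 other known targets of ChREBP, among them enzymes of fat synthesis, were higher in 16 cases with high carbohydrate against high protein. Their median log2 fold change was 0.60, beside 0.02 for all genes, and 6 of 18 were higher at an unadjusted p under 0.05, beside 4.06% of all genes, with none lower. None passed adjustment. The 3 with the smallest p were Me1, the malic enzyme that supplies NADPH, Pnpla3, a lipid droplet protein, and Acacb, which makes malonyl-CoA at mitochondria. Me1 was at 95.4 ± 21.5 CPM with high protein (SD, n = 4) and at 146 to 278 CPM in the 8 high-carbohydrate livers, without overlap (log2 fold change 1.07, SE 0.30, adjusted p = 0.375, edgeR). Acacb was at 21.3 ± 1.3 and 52.5 ± 27.2 CPM, a log2 fold change of 1.30, with the low-protein livers 1 and 2 (17.9 and 18.5 CPM) below all 4 high-protein livers. Pnpla3 was a low gene, at 0.26 ± 0.14 and 1.25 ± 0.66 CPM, with a log2 fold change of 2.19. Leaving out single libraries left 14 to 16 of the 18 higher, with 4 of them at an unadjusted p under 0.05 without high-protein 4 (2.08% of all genes). Against control, with control 4 included, 15 of the 18 were lower with high protein, where 41.7% of all genes tested were higher. The median was -0.89, and 6 were lower at an unadjusted p under 0.05, beside 3.74% of all genes. Control 4 was extreme for some of the 18, with Elovl6 at 8.26 CPM against 170 to 210 in the other controls. Rgs16 was at 2084 CPM in control 4 against 138 to 405. This count is not given without control 4.

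The dimer partners and regulators of ChREBP did not share this direction. Of 8, including Mlx, Nr1h3 and Hnf4a, 7 were lower with high carbohydrate, with a median of -0.16, where 53.5% of all genes tested were higher. Only 1 of the 8 was lower at an unadjusted p under 0.05, beside 4.79% of all genes. Some differences were small, with Mlx at 28.5 CPM with high protein and 28.2 CPM with high carbohydrate, and Nr1h3 at 127 and 121 CPM. Rxra, a partner of the liver X receptors, was at 399 ± 19.4 CPM with high protein and 336 ± 41.3 CPM with high carbohydrate (log2 fold change -0.25, SE 0.10, adjusted p = 0.503, edgeR). Srebf1, the insulin-responsive regulator of fat synthesis, was the exception at 0.68 (SE 0.43). Ppargc1b was at -0.55.

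In the pentose phosphate pathway, which branches from phosphorylated glucose and makes NADPH, 7 of 8 genes were higher with high carbohydrate, beside 53.5% of all genes tested. The median of the 8 was 0.16. Pgd was at 37.4 ± 1.04 CPM with high protein and 58.0 ± 8.35 CPM with high carbohydrate, without overlap (log2 fold change 0.63, SE 0.19, adjusted p = 0.402, edgeR). Tkt, which links the pathway to glycolysis, was at 0.35 (SE 0.15), and Pgls, the exception, at -0.28.

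Glycolysis outside the 7 genes showed no common direction. Of 23 genes of glycolysis and glucose transport, 11 were higher and 12 lower, with a median of -0.01. Pfkfb3, which makes an activator of phosphofructokinase, was lower, at 36.7 ± 7.52 CPM with high protein and 15.6 ± 7.42 CPM with high carbohydrate, without overlap (log2 fold change -1.24, SE 0.32, adjusted p = 0.321, edgeR). Its paralogue Pfkfb2 was at -0.67 and the phosphofructokinase gene Pfkp at 0.73. The 10 other genes of fructose, polyol and galactose handling were also divided, 5 higher and 5 lower, with a median of -0.03. Among the smallest p-values in that group were those of Slc2a8, a sugar transporter (log2 fold change -0.29), and the galactokinase gene Galk1 (-0.24).

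Among 11 genes of glycogen and glucose release, 4 were higher and 7 lower, with a median of -0.05. Gys2, the liver glycogen synthase, was at 307 ± 97.1 CPM with high protein and 188 ± 71.3 CPM with high carbohydrate (log2 fold change -0.75, SE 0.24, adjusted p = 0.447, edgeR). Ppp1r3g, which targets a phosphatase to glycogen, was at -4.05, with 411 CPM in high-protein 4 and 8.31 to 15.7 CPM in the other 3 high-protein livers. Its relative Ppp1r3c was at 1.43. In the arrestin and thioredoxin group of Txnip, 2 of the 8 genes tested were higher. Arrdc3, an arrestin-domain relative, was the larger of these, at 65.4 ± 66.4 and 231 ± 91.2 CPM (log2 fold change 1.80, SE 0.60, adjusted p = 0.465, edgeR), while the mitochondrial genes Txn2 and Txnrd2 were at -0.34 and -0.33.

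**Figure D5:**
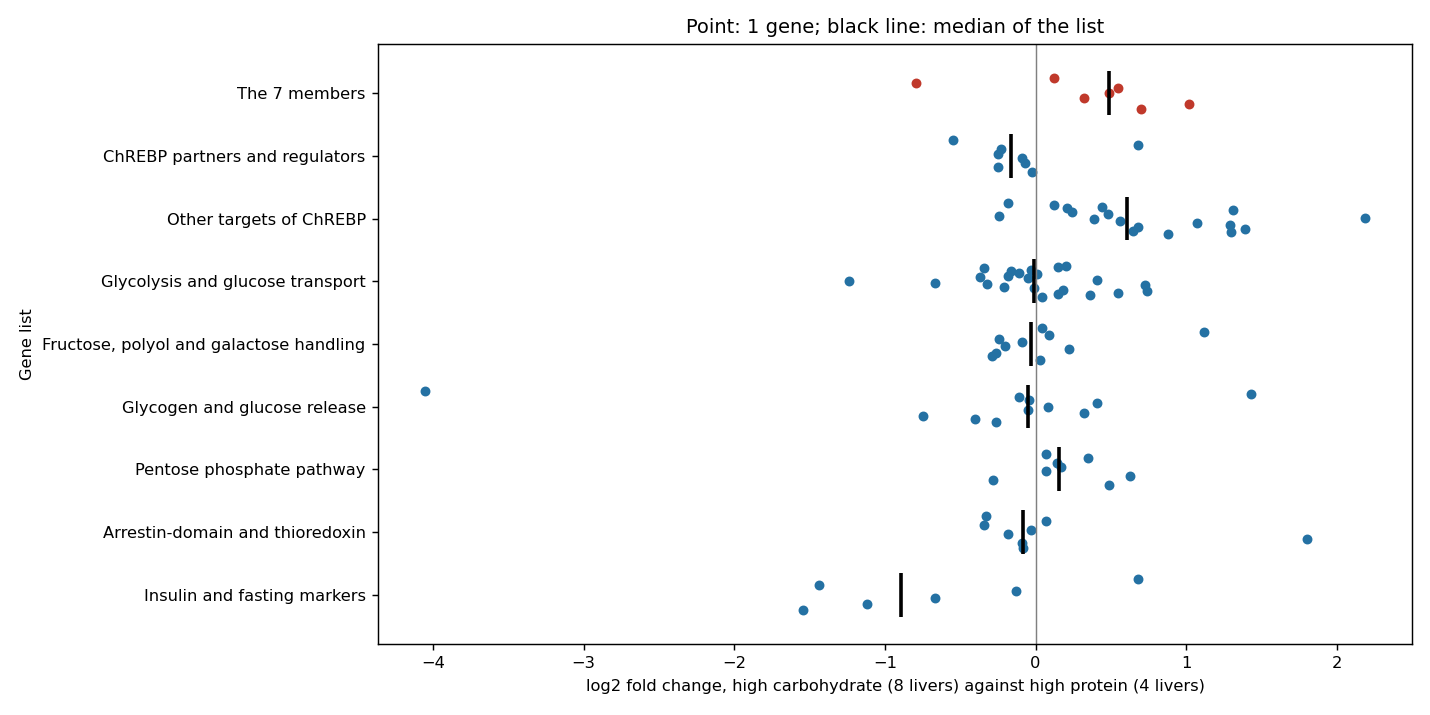
Log2 fold change of high carbohydrate against high protein for the 7 genes and 8 lists, with 1 point per gene and a bar at each median. The 7 genes (median 0.49) and the other ChREBP targets (0.60) lie mostly above 0, whereas glycolysis (-0.01) is divided and the insulin and fasting markers lie lower (-0.90).

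Insulin and fasting markers also differed in this contrast, 5 of 6 being lower with high carbohydrate, where 53.5% of all genes tested were higher. Their median was -0.90, and 0.08 without high-protein 4. Pck1 was at 4062, 4446, 4184 and 6239 CPM with high protein and at 1308 to 3044 CPM in the 8 high-carbohydrate livers, without overlap (log2 fold change -1.12, SE 0.43, adjusted p = 0.507, edgeR). Ppargc1a, a coactivator of gluconeogenesis, was at 24.2 to 59.4 CPM with high protein and 9.08 to 33.3 CPM with high carbohydrate (-1.44, SE 0.49, edgeR). Pdk4 was not separated, at 3.59 to 34.2 CPM with high protein and 4.25 to 24.2 CPM with high carbohydrate. Its highest value was that of high-protein 4 among these livers. Igfbp1 in high-protein 1, 2 and 3 (86.4 to 188 CPM) overlapped the high-carbohydrate livers (60.1 to 269 CPM), whereas Pck1 in those 3 livers did not. Pklr was 103, 143 and 87.3 CPM in them. The log2 fold change of Pklr without high-protein 4 was 0.89. The part of insulin and feeding state in the Pklr difference was not tested.

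Across the 16 livers, the 7 genes had patterns of their own. Pklr, Khk and Tkfc varied together, with Pearson r of log2 CPM of 0.93 for Pklr and Tkfc, 0.88 for Khk and Tkfc and 0.86 for Pklr and Khk. Without control 4 these were 0.87, 0.80 and 0.78. Mlxipl went with Gckr (0.70, and 0.71 without control 4) more closely than with Pklr (0.41 and 0.56). The r of Txnip with Pklr was -0.60, and -0.17 without control 4, and that with Slc2a2 was -0.74, and -0.39. These values describe 16 libraries that share diets and library preparation, and carry no test.

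Among all protein-coding genes tested, the pattern nearest to Pklr was that of Acaca, which encodes the acetyl-CoA carboxylase of fat synthesis (r = 0.96 over 16 libraries, 0.93 over 15 without control 4), followed by Nrp1 and Sc5d (both 0.94). Nearest to Khk were Tkt (0.93, and 0.89 without control 4), Tkfc and Pdk1. Nearest to Tkfc were Pklr itself, Umps (0.92) and Derl2 (0.90). Mlxipl was nearest to Irf2bpl and Atxn7l1 (both 0.88) and Tirap (0.87), and Gckr to Commd7 (0.91), Spop (0.89) and Sntb1 (0.88). The genes nearest to Txnip were Gpank1 (0.93), Dmbt1 (0.93) and Slc25a47 (0.92). For Slc2a2 they were Erg28, Pls1 and Cnot8 (all 0.94), and without control 4 each of these r values was 0.70 to 0.71.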

How the data were processed

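Whole-number read counts per gene were deposited by the authors as 1 table for all 16 libraries, with gene bounds and summed exon length. Per the labels' protocols, libraries were made with a directional kit. The submitters' processing notes name STAR 2.7.0f, Trimmomatic 0.39, Subread 1.6.4 with featureCounts, edgeR 3.32.1 and build GRCm38.p6. No setting or annotation release is given in the sources used here. Of 54752 identifiers, 54723 matched GENCODE M21 without their version, which supplied symbols.

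The 7 genes and the 8 gene lists and 10 marker lists were chosen with earlier results of these data known. Genes passing filterByExpr (17833) were fitted in edgeR 4.0.16 (R 4.3.3) with TMM factors, quasi-likelihood tests and 4 group means over 16 libraries (12 residual degrees of freedom). The 5 comparisons were two-sided, with Benjamini-Hochberg adjustment over all genes and a threshold of 0.05. Groups came from the sample titles, and litters and cages are not stated, so the p-values reflect only how these 16 samples varied. Replicates differed by more than sampling noise (chi-square per degree of freedom 44.8 or more). Total counts of 35243594 to 112789127 set the counting precision.

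Always named were the 7 genes, with, for each list, any gene past the threshold and the 3 with the smallest p in high carbohydrate against high protein, and the 3 protein-coding genes most like each of the 7 (Pearson r of log2 CPM, prior count 2). A gene that this rule names is not reported here. Hcn3, Gm15441, Fasn and the values of single fasting markers were chosen after their values were seen. The steps were tested on simulated data. As alternatives, DESeq2 1.42.0, limma-voom (limma 3.58.1) with quality weights, upper-quartile or RLE factors, no filter on low counts, the compared groups alone, a replicate block, the kidney level as a covariate and each library left out in turn were run. Leaving out control 4 and high-protein 4 together was added after the data were seen.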

Additional observations from a re-analysis of the deposited data

Results flagged for a closer look

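In each of the 4 diets the 7 genes were searched for a library far from the other 3 of its group, 28 groups of values in all, of which about 1 in 20 is picked out by chance. Control 4 was picked out for Tkfc, at 155.7 CPM as the lowest control (gap to the nearest library 0.918 of the group's range), and for Txnip, at 3652 CPM as the highest control (0.911). Low fat 3 was the lowest of its group for Tkfc, at 310.7 CPM (0.871). For Slc2a2, low protein 3 was the highest of its group at 520.6 CPM (0.881) and low fat 2 the lowest at 339.5 CPM (0.849). The Slc2a2 groups were narrow, so these distances are small in CPM. Low protein and low fat did not overlap for Slc2a2, and leaving out these outer values could not have made them overlap.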

How the results depend on the processing

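Of 623 fold changes of the 7 genes under the alternatives, 577 kept their direction and their side of the threshold, 45 changed sign and 1 passed the threshold, Pklr in high carbohydrate against high protein with the compared groups alone (1.02). The number of the 7 past the threshold was then 1, and at an unadjusted p it was 5 there and 1 in low protein against control. Genes called over the whole table with DESeq2 numbered 1 in high protein, 10 in low protein and 4 in low fat, each against control. For high carbohydrate against high protein they were 96 with DESeq2, 9 without the filter, 32 with limma-voom, 152 with the compared groups alone and 6 without control 4 and high-protein 4. Leaving out single libraries gave 0 to 18 (18 without high-protein 3) and, for low fat against control, 0 to 109 genes (109 without control 3). The cause of these changes was not tested.

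Sign changes with limma-voom were Txnip 0.07 in high protein against control, 0.67 in low fat against control and 0.02 in high carbohydrate against high protein. Against control, limma-voom also gave Pklr -0.17, Tkfc -0.10 and Slc2a2 -0.04 with low protein, and Pklr -0.23 and Tkfc -0.15 with low fat. Without control 4 and high-protein 4 they were Pklr -0.26, Tkfc -0.12 and Slc2a2 -0.07 with low protein, Pklr -0.36, Khk -0.06, Tkfc -0.24 and Txnip 0.37 with low fat, and Txnip 0.08 in high carbohydrate against high protein. Pklr with low fat was -0.00093 with RLE factors, -0.00085 with DESeq2 and -0.0021 with the kidney covariate. Gckr in low fat against low protein was 0.0005 with limma-voom and 0.01 with the kidney covariate.

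With single libraries left out, sign changes lay within these ranges. High protein against control gave Gckr -0.25 to 0.03, Txnip -2.71 to 0.74 and Slc2a2 -0.34 to 0.08. Low protein against control gave Pklr -0.26 to 0.30, Tkfc -0.12 to 0.26 and Slc2a2 -0.07 to 0.36. Low fat against control gave Pklr -0.36 to 0.20, Khk -0.06 to 0.31, Tkfc -0.24 to 0.15, Txnip -2.59 to 0.37 and Slc2a2 -0.41 to 0.03. High carbohydrate against high protein gave Txnip -1.16 to 0.08. Low fat against low protein gave Pklr -0.21 to 0.07, Gckr -0.15 to 0.04 and Khk -0.19 to 0.07.

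The replicate numbers in the titles share no stated litter or batch. Deviations of same-numbered libraries correlated at -0.201 to 0.301 over 24 pairs, and 6 of 16 libraries correlated best with their own number. With the replicate block, 2 genes were called in high carbohydrate against high protein, and none of the 7 passed. On library totals in place of TMM sizes, 0 of the 28 group levels moved by more than 1 SD. The lowest count of the 7 genes in any library was 923 reads.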
